A study of Mus musculus with 80 samples.

Results

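Inpp5d, Plcg2, Abi3, Bin1, Picalm, Cd33, Ms4a6d, Sorl1, Cd2ap and Clu are 10 mouse genes whose human counterparts or close relatives lie at loci associated with the risk of Alzheimer's disease. They were taken by gene symbol from the deposited count tables of an RNA-Seq study of microglial isolation, and all 10 were found among the 15919 genes of the sort comparison and among the 16000 genes of the cell preparation comparison. Brains came from adult Cx3cr1-NuTRAP mice, and all 80 libraries carry the genotype label Cx3cr1(Jung)-cre/Ert2+;NuTRAP+. All mice, those of the unsorted groups included, received tamoxifen (100 mg/kg, at about 3 months of age), after which cells that express Cx3cr1 carry eGFP on their ribosomes. The Cx3cr1 driver is active in microglia and in border macrophages, so the tag can mark both, and it also acts in short-lived circulating cells, for which the study waited after tamoxifen so that labelled ones would turn over. Input RNA was taken before, and TRAP (translating ribosome affinity purification) RNA after, the pull-down of eGFP-tagged ribosomes with an anti-GFP antibody. The sort comparison holds both fractions of brain homogenised directly (Tissue), of an enzymatically and mechanically dissociated, unsorted suspension (Cell), and of cells enriched from such a suspension by CD11b beads (autoMACS), by a CD11b, CD45 and eGFP gate in a cartridge sorter (Tyto) or a droplet sorter (FACSAria), or by beads followed by the cartridge (autoMACS to Tyto). There were 4 libraries per group and fraction, except 3 for autoMACS to Tyto and 5 for Tyto. The cell preparation comparison holds both fractions of Tissue, of an enzymatic suspension without inhibitors, Cell (-), of one with the transcription inhibitors actinomycin D and triptolide and the translation inhibitor anisomycin, Cell (+), and of a cold mechanical suspension (Dounce), with 4 libraries each. Mice gave more than one library. Mice 946 to 949 gave the Tissue libraries of both comparisons and the Cell libraries of the sort comparison, Tyto and FACSAria shared mice 69, 945 and 991, autoMACS and autoMACS to Tyto shared mice 66, 67 and 73, and Cell (-) and Cell (+) came from the same 4 mice. The tests treat these libraries as independent unless the mouse is named as a block.

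The listed genes act at several points of a phagocyte's response to debris and of membrane traffic. Surface receptors of microglia signal through ITAM-bearing adaptors to phospholipase C gamma 2, encoded by Plcg2, while the inositol phosphatase SHIP1, encoded by Inpp5d, and the inhibitory receptor CD33 dampen that signal. Bin1, Picalm, Cd2ap and Sorl1 encode proteins that shape, move or sort endocytic membranes in many cell types, and Clu encodes a secreted chaperone that in brain is made mainly by astrocytes.

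Promoter windows are shown for the 5 matched members that were called higher in Cell than in Tissue in both fractions, as a reference for genes whose RNA moved together, although the data measure RNA level and not transcription. RefSeq windows on GRCm38.p6 run from 250 bases before to 50 bases after the annotated start, and they were matched for 6 members, of which Sorl1 has 2 windows. Bin1 was left out of this search, and Abi3, Ms4a6d and Clu had no window. Each is written 5′ to 3′ on the strand of its gene, and capitals mark GAGGAAG, a purine-rich core of the kind that ETS factors such as PU.1 recognise, which was searched on both strands (reverse complement CTTCCTC). The windows lie at chr1:87620062-87620361 on the plus strand for Inpp5d, chr8:117498025-117498324 on the plus strand for Plcg2, chr7:90129963-90130262 on the plus strand for Picalm, chr7:43533122-43533421 on the minus strand for Cd33 and chr17:42876375-42876674 on the minus strand for Cd2ap.
Inpp5d: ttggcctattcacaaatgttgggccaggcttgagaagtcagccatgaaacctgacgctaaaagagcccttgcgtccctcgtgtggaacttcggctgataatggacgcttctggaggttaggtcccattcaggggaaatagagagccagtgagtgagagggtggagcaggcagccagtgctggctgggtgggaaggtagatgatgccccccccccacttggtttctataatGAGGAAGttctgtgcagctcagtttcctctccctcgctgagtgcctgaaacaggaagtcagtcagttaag
Plcg2: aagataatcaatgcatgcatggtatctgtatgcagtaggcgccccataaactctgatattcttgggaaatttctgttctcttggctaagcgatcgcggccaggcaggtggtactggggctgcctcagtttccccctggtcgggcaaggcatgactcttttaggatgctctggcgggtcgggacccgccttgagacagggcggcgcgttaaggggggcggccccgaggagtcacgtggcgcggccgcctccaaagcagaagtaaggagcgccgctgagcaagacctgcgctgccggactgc
Picalm: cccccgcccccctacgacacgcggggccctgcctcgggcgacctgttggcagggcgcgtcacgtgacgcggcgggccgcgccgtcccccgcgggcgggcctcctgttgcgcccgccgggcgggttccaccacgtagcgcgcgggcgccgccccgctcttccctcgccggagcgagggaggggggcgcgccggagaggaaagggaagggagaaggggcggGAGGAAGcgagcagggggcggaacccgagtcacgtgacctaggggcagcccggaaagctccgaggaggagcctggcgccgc
Cd33: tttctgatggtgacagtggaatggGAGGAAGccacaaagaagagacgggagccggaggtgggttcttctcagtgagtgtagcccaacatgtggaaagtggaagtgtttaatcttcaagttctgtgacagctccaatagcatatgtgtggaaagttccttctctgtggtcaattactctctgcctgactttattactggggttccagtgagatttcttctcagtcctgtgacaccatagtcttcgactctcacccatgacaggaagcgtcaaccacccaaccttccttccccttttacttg
Cd2ap: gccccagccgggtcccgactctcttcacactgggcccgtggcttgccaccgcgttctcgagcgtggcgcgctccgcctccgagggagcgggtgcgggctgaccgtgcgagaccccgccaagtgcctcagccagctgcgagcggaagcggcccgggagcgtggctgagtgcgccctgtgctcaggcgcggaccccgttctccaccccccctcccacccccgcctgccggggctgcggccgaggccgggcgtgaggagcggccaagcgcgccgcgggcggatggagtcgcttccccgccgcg
The 7 letters begin 20 bases before the start of Inpp5d, 31 before that of Picalm and 226 before that of Cd33, and they are not in the windows of Plcg2, Sorl1 or Cd2ap. They occur in 13.6% of 32851 such mouse windows, or at 15.4% of 27025 genes, and in 3 of the 6 members matched, with Bin1 left out. This is a description of the letters in these windows and not of a bound site.

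Library totals over the listed genes ranged from 7129464 to 20168116 estimated counts in the sort comparison and from 2471448 to 14650287 in the cell preparation comparison, where the 4 Dounce-TRAP libraries were the shallowest (2471448 to 4724538). Levels are given as CPM, the usual counts scaled to library size, with TMM factors over all libraries of a comparison. The summed level of 10 microglial markers, among them P2ry12, Tmem119 and Cx3cr1, had a median of 276.7 CPM in Tissue-Input, 5761 in Cell-Input, 6446 in Tissue-TRAP and 37050 in Cell-TRAP, and lay at medians of 37920 to 41950 in sorted Input and 45560 to 48450 in sorted TRAP. The 10 astrocyte markers summed to medians of 3364 CPM in Tissue-Input, 9095 in Cell-Input, 4698 in Tissue-TRAP and 1961 in Cell-TRAP, and to 161.5 to 339.9 in the sorted groups, and no marker of either list was at 0 in every library of any of the 4 unsorted groups. In bulk RNA, fewer cells of a type and less RNA per cell cannot be told apart. The autoMACS-Input library of replicate 3 stood apart, with the lowest total of its comparison (7129464) and a microglial marker sum of 24520 CPM, and values that rest on it are named as such.

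The first comparison set the unsorted suspension against whole tissue, in the whole preparation and in the pull-down. In Input, 8 of the 10 genes were higher in Cell than in Tissue by the rule used throughout (edgeR quasi-likelihood test, Benjamini-Hochberg adjusted p under 0.1 over all genes and a fold above 2), where 28.6% of all tested genes were called higher and 17.5% lower. The median log2 fold change was 2.43 for the members and 0.17 for all genes. The plot of levels by group shows every library.

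**Figure D1:**
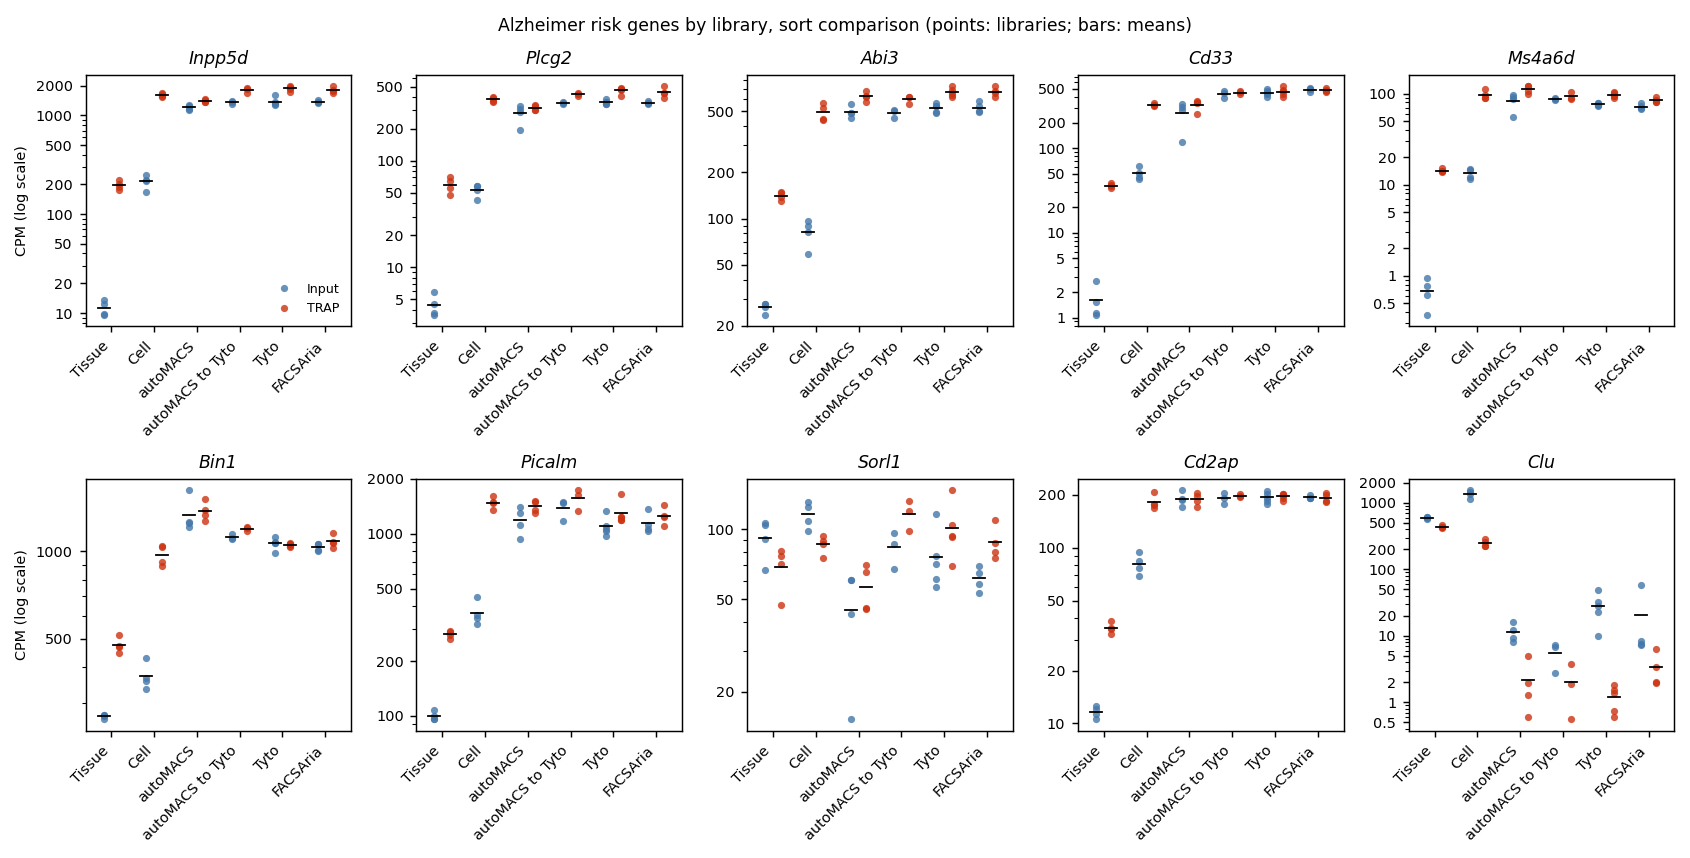
Level of each of the 10 genes in the sort comparison, in CPM on a log axis, with 1 point per library (blue Input, red TRAP) and a bar at each group mean. Cd33 rises from 1.61 CPM in Tissue-Input to 464 CPM in Tyto-TRAP, Sorl1 stays between 44.8 and 117 CPM, and Clu falls from 1380 CPM in Cell-Input to 1.22 CPM in Tyto-TRAP.

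Inpp5d (chromosome 1, 87620312 to 87720508, plus strand, mm10) had 9.55, 13.6, 9.82 and 12.3 CPM in the 4 Tissue-Input libraries and 168, 250, 221 and 217 CPM in the Cell-Input libraries. The groups did not overlap, and the log2 fold change was 4.34 ± 0.13 (SE; adjusted p = 1.94e-17). Plcg2 (chromosome 8, 117498291 to 117635142, plus strand) had 4.48, 5.82, 3.57 and 3.74 CPM in Tissue-Input and 42.5, 57.5, 53.3 and 58.5 CPM in Cell-Input. Its libraries were likewise apart, with a log2 fold change of 3.69 ± 0.17 (adjusted p = 6.58e-15). Abi3 (chromosome 11, 95830072 to 95842476, minus strand) encodes a protein of the actin-regulating WAVE complex, and rose less. It had 27.6, 27.8, 26.4 and 23.6 CPM in Tissue-Input against 59.0, 81.9, 89.4 and 96.8 CPM in Cell-Input, a log2 fold change of 1.73 ± 0.13 (adjusted p = 2.51e-11). Of the 4005 words of 50 bases in the exons of Abi3, 68.5% also occur on the opposite strand of transcripts of Zfp652, Phospho1 or Gngt2, and whether counting took strand into account is not given in the sources used here. Phospho1 was at 24.6 ± 1.73 CPM in Tissue-Input (SD, n = 4) and at 6.17 ± 3.63 CPM in Cell-Input. Zfp652, which shares most of these words, went the other way, from 3.96 ± 0.76 to 24.4 ± 3.20 CPM, and Gngt2 from 1.48 ± 0.43 to 13.1 ± 2.6 CPM. The part of these genes in the Abi3 values was not tested.

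Cd33 had the highest log2 fold change of the members. Cd33 (chromosome 7, 43527456 to 43533171, minus strand), a sialic acid-binding receptor of myeloid cells, was near the limit of counting in Tissue-Input, with 22, 58, 33 and 26 estimated counts or 1.07, 2.70, 1.53 and 1.13 CPM. Cell-Input had 42.8, 61.3, 51.2 and 45.7 CPM, and the log2 fold change was 5.06 ± 0.30 (adjusted p = 6.24e-13). Ms4a6d (chromosome 19, 11586606 to 11604804, minus strand) encodes a tetraspan membrane protein of the MS4A family, in which neighbouring genes resemble each other, and 2.7% of the exon words of Ms4a6d also occur in transcripts of Ms4a6b on the same strand. It had 16, 20, 8 and 14 estimated counts in Tissue-Input (0.37 to 0.93 CPM) and 14.5, 15.0, 11.6 and 12.0 CPM in Cell-Input. The log2 fold change was 4.39 ± 0.21 (adjusted p = 1.16e-14).

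Among the endocytic genes, Cd2ap rose most and Sorl1 did not pass the test. Cd2ap (chromosome 17, 42792951 to 42876424, minus strand), an adaptor between membrane proteins and actin, had 11.4, 12.6, 10.6 and 12.1 CPM in Tissue-Input and 68.7, 83.8, 94.1 and 76.8 CPM in Cell-Input, a log2 fold change of 2.89 ± 0.11 (adjusted p = 2.86e-16). Of its exon words, 8.1% also occur in transcripts of Gm6475 or Gm7529 on the same strand. Picalm (chromosome 7, 90130232 to 90209447, plus strand), a clathrin assembly protein, went from 95.9, 108, 100.0 and 96.7 CPM to 343, 451, 357 and 320 CPM, with 1.97 ± 0.14 on the log2 scale (adjusted p = 2.41e-11). Neither gene had overlapping groups. Bin1, which encodes a membrane-bending amphiphysin, was at 264, 273, 274 and 270 CPM in Tissue-Input and at 365, 430, 358 and 335 CPM in Cell-Input. These groups were apart as well, but the log2 fold change of 0.56 ± 0.08 (adjusted p = 1.22e-06) stayed below the required fold. Sorl1 (chromosome 9, 41968489 to 42124289, minus strand), a sorting receptor that carries cargo back from endosomes, had 90.6, 66.9, 107 and 104 CPM in Tissue-Input and 125, 132, 98.4 and 109 CPM in Cell-Input. Its groups overlapped, and the log2 fold change was 0.43 ± 0.28 (adjusted p = 0.167). Clu (chromosome 14, 65968483 to 65981545, plus strand) rose from 605, 603, 607 and 577 CPM to 1150, 1450, 1369 and 1550 CPM, a log2 fold change of 1.31 ± 0.46 (adjusted p = 0.0155). The astrocyte marker sum rose over the same groups, from medians of 3364 to 9095 CPM.

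In the TRAP fraction the same contrast compares the RNA pulled down from the suspension with that pulled down from whole tissue. Here too 8 genes were higher in Cell than in Tissue, beside 25.1% of all genes called higher and 29.2% lower, with a median log2 fold change of 2.40 for the members and -0.01 for all genes. They were Inpp5d, Plcg2, Abi3, Bin1, Picalm, Cd33, Ms4a6d and Cd2ap, where Bin1 took the place that Clu had in Input. The 10 microglial markers were all called higher in this contrast as well, with a median log2 fold change of 2.68, while the 10 neuronal markers were all called lower, with a median of -4.92. The neuronal markers summed to a median of 7166 CPM in Tissue-TRAP, beside 7603 in Tissue-Input and 187.5 in Cell-TRAP. The groups thus also differ in how much other RNA came with the pull-down, and its part in the members' differences was not tested.

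Inpp5d had 176, 190, 222 and 204 CPM in Tissue-TRAP and 1538, 1582, 1660 and 1695 CPM in Cell-TRAP, a log2 fold change of 3.05 ± 0.06 (adjusted p = 7.59e-21). Cd33 went from 36.3, 38.6, 35.7 and 33.8 CPM to 315, 319, 341 and 323 CPM, with 3.18 ± 0.09 on the log2 scale (adjusted p = 3.98e-19). The libraries of each gene were tightly grouped and far apart between the groups. Plcg2 (2.68), Ms4a6d (2.79), Picalm (2.41), Cd2ap (2.40) and Abi3 (1.82) rose in log2 fold change to a similar or smaller extent, each without overlap. Bin1 rose from 470, 445, 515 and 472 CPM to 889, 922, 1043 and 1034 CPM. Its log2 fold change of 1.05 ± 0.06 (adjusted p = 8.67e-14) lay at the fold limit and was 0.71 once TMM was replaced by DESeq2's size factors, a scaling that moved the median of all genes by -0.33, and 0.98 with the mouse as a block (adjusted p = 1.67e-06). Sorl1 had 70.6, 47.1, 80.9 and 76.8 CPM in Tissue-TRAP and 89.1, 86.6, 75.3 and 93.7 CPM in Cell-TRAP. These overlapped, with a log2 fold change of 0.34 ± 0.19 (adjusted p = 0.101). Clu went the other way from Input, from 440, 430, 464 and 417 CPM to 259, 226, 223 and 290 CPM. The groups were apart, but the log2 fold change of -0.80 ± 0.26 (adjusted p = 0.00698) did not reach the fold limit. It did so, and was called lower, with DESeq2's size factors (-1.13), with DESeq2 (-1.13) and with limma (-1.24). The plot of fold changes sets both fractions side by side.

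**Figure D2:**
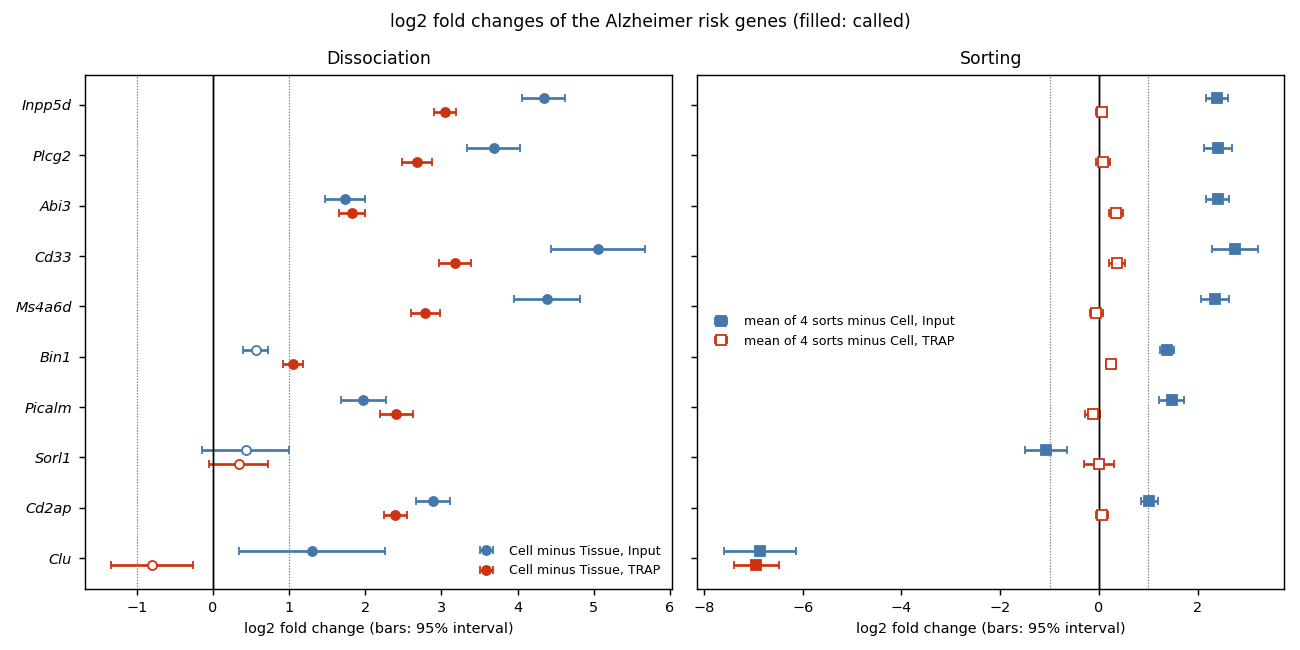
Log2 fold change of each of the 10 genes with its 95% interval, for dissociation (Cell minus Tissue, left) and for sorting (mean of the 4 sorts minus Cell, right), in Input and in TRAP; filled points passed the call rule. On the left 8 genes were called higher in each fraction, and on the right the TRAP points sit near 0 for every gene but Clu, at -6.94.

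Sorting was compared as the mean of the 4 sort methods against the unsorted suspension. In Input, all 10 genes were called, 8 higher (background 17.2%) and 2 lower (background 34.6%). Inpp5d reached 1140.0 CPM in the lowest and 1591 in the highest of the 16 sorted Input libraries (median 1343), all above the highest Cell-Input library, and the log2 fold change was 2.40 ± 0.10 (adjusted p = 1.07e-15). Plcg2 (2.42), Abi3 (2.41), Cd33 (2.76) and Ms4a6d (2.35) rose by like amounts in log2 fold change, whereas Picalm (1.48), Bin1 (1.38) and Cd2ap (1.02) rose less. The microglial marker sum rose over the same groups, from a median of 5761 CPM to medians of 37920 to 41950. Cd2ap sat at the fold limit, at 0.82 with DESeq2's size factors and at 0.95 without Cell-Input replicate 1, and it also lost its call without Cell-Input replicate 4.

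The genes that fell with sorting were Sorl1 and Clu. Sorl1 was between 15.2 and 116 CPM in the sorted Input libraries, overlapping the 98.4 to 132 CPM of Cell-Input, and its log2 fold change was -1.06 ± 0.21 (adjusted p = 5.41e-05). By sort method, the log2 difference from Cell-Input was -1.60 in autoMACS, -1.14 in FACSAria, -0.85 in Tyto and -0.68 in autoMACS to Tyto, of which the first 2 were called. Without autoMACS-Input replicate 3, which had the lowest Sorl1 level, the mean difference was -0.99, below the fold limit, and the call was also lost without Cell-Input replicate 2. Clu fell from 1150 to 1550 CPM in Cell-Input to between 2.74 and 59.2 CPM after sorting, a log2 fold change of -6.87 ± 0.35 (adjusted p = 1.1e-14), and no sorted library came near an unsorted one. All 10 astrocyte markers were also called lower, with a median log2 fold change of -7.80.

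In TRAP, 9 of the 10 members were not called between the sorted groups and Cell-TRAP. Clu was called lower, at -6.94 ± 0.22 in log2 fold change (adjusted p = 1.02e-18), and no member was called higher, beside 0.823% of all genes called higher and 23.5% lower. The median log2 fold change was 0.06 for the members and -0.05 for all genes. Clu counts were low after sorting, from 8 to 92 estimated counts (0.56 to 6.30 CPM), and the decrease was called in each of the 4 sorts, between -6.21 and -7.71. For Inpp5d the difference was 0.06, with a 95% interval of -0.05 to 0.17, and the widest interval among the other members except Clu, that of Sorl1, ran from -0.31 to 0.30. All 9 of these intervals lay inside the fold limit of 2 on both sides. Cd33 (0.37, adjusted p = 0.000174), Abi3 (0.34, adjusted p = 8.86e-05) and Bin1 (0.24, adjusted p = 0.000213) passed the adjusted p with log2 differences below the fold limit. Against Tissue-TRAP, which had served as the control of the dissociation contrast too, the sorted TRAP libraries were higher for 8 members (background 25.9%) and lower for Clu (background 36.8%). These log2 fold changes were 3.55 for Cd33, 3.10 for Inpp5d, 2.76 for Plcg2, 2.74 for Ms4a6d, 2.46 for Cd2ap, 2.28 for Picalm, 2.17 for Abi3, 1.29 for Bin1 and -7.74 for Clu, and Sorl1 was not called at 0.34 (adjusted p = 0.0412). The Bin1 call was lost with DESeq2's size factors (0.94), with DESeq2 (0.94), with limma (0.83) and with at least 10 counts in every library (0.87).

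The 4 sort methods were then compared with each other, without a block for the mice they shared. In Input, Clu was the 1 member that differed among them, beside 7.44% of all genes called, with a largest log2 difference of 2.34 between any pair of methods (adjusted p = 0.0388). It had 9.94 to 49.2 CPM in Tyto, 7.32, 7.53, 8.46 and 59.2 CPM in FACSAria, 8.17 to 15.9 CPM in autoMACS and 2.74, 6.79 and 7.21 CPM in autoMACS to Tyto. The methods overlapped except that every autoMACS to Tyto library lay below every other sorted Input library, and the call was lost without replicate 2 of autoMACS to Tyto. Cd33 had 335, 306, 119 and 282 CPM in autoMACS-Input, all below the 390 to 508 CPM of the other 3 sorts. Its largest log2 difference of 0.93 (adjusted p = 0.0392) was below the fold limit. Without autoMACS-Input replicate 3 this difference was 0.68 for Cd33 (adjusted p = 0.0233), and without replicate 1 or 2 of that group it was 1.09 or 1.02 and called. Sorl1 was called among the sorts in Input without autoMACS-Input replicate 1 (1.11) or 4 (1.09).

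In TRAP, Sorl1 was the 1 member called among sorts, beside 4.18% of all genes. It had 65.3, 45.9, 70.3 and 45.3 CPM in autoMACS-TRAP and 119, 98.7 and 132 CPM in autoMACS to Tyto-TRAP, which did not overlap, and the means of Tyto (69.5 to 147 CPM) and FACSAria (75.5 to 110 CPM) lay between theirs. The largest log2 difference was 1.03 (adjusted p = 0.00224), and the call was lost without autoMACS-TRAP replicate 2 or 4 or without autoMACS to Tyto-TRAP replicate 3 (each 0.94). Clu, at 1.50 (adjusted p = 0.122), was called in 6 of the fits that left out 1 library. Inpp5d, Plcg2, Bin1, Cd33 and Ms4a6d passed the adjusted p with largest log2 differences of 0.39 to 0.55. Of these, Inpp5d, Plcg2 and Cd33 had their lowest mean in autoMACS-TRAP, where Inpp5d was at 1435, 1364, 1462 and 1364 CPM against 1668 to 1980 in the other sorts, whereas Bin1 and Ms4a6d had their highest mean there.

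The pull-down was compared with its own Input within each group. In Tissue, 7 members were higher in TRAP (background 9.22%), and none was lower (background 1.88%). The log2 fold changes were 4.48 for Cd33, 4.39 for Ms4a6d, 4.13 for Inpp5d, 3.76 for Plcg2, 2.42 for Abi3, 1.58 for Cd2ap and 1.49 for Picalm. The genes of restricted myeloid use thus came first and the endocytic genes after them. Bin1 had 0.81 (adjusted p = 9.93e-13), below the fold limit, and Sorl1 (-0.42, adjusted p = 0.221) and Clu (-0.45, adjusted p = 0.467) did not pass the test. The Clu libraries were nevertheless apart, with 417 to 464 CPM in Tissue-TRAP and 577 to 607 CPM in Tissue-Input. The test took its spread from all groups of both fractions, including sorted groups with few Clu counts. In Cell, 8 members were higher in TRAP (background 16.8%), with Bin1 added at 1.39, and Clu was lower (background 30.9%) at -2.47 (adjusted p = 1.48e-06). With DESeq2's size factors, DESeq2, limma or at least 10 counts in every library, the calls of Bin1 (0.89 to 0.98) and Cd2ap (0.68 to 0.77) were lost. In the mean of the 4 sorts no member was higher (background 0.0695%) and Clu was lower (background 19.0%), at -2.75 ± 0.30 (adjusted p = 3.86e-10).

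The difference between TRAP and Input was smaller in Cell than in Tissue for 3 of the myeloid genes, and more negative for Clu. Tested as an interaction in 1 fit over both fractions, the change was -1.79 ± 0.28 for Cd33 (adjusted p = 1.19e-06), -1.51 ± 0.21 for Ms4a6d (adjusted p = 1.38e-07), -1.21 ± 0.13 for Inpp5d (adjusted p = 3.96e-10) and -2.02 ± 0.56 for Clu (adjusted p = 0.00249), on the log2 scale. The background was 29.5% of all genes called lower and 5.75% higher, and the median of all genes was itself -0.29 (-0.61 with DESeq2's size factors). Plcg2, at -0.92, fell short of the fold limit and passed it with DESeq2's size factors (-1.25) and without Cell replicate 1 or Tissue replicate 1, 2 or 4 (-1.02 to -1.24). Bin1 (0.57) and Picalm (0.52) had interactions in the other direction, below the limit.

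The cell preparation comparison repeated the contrast of suspension against tissue in separate libraries of partly the same mice. Per the paper, coverage along transcripts was more skewed in its Tissue than in its Cell groups in both fractions, and the part of this was not tested. In Input, 8 members were again higher in Cell (-) than in Tissue (background 25.6%) and none was lower (background 19.1%). Inpp5d had 12.4, 12.8, 10.0 and 14.7 CPM in Tissue-Input and 247, 311, 186 and 302 CPM in Cell (-)-Input, and its log2 fold change was 4.25 (adjusted p = 8.51e-12). Ms4a6d rested on 9, 7, 6 and 6 estimated counts in Tissue-Input and also had 4.25. Sorl1 fell short of a call at -0.51 (adjusted p = 0.0127), with the sign opposite to that in the sort comparison. In TRAP, 7 members were higher (background 22.3%) and Clu was lower (background 30.8%) at -1.03 (adjusted p = 6.85e-05), and Bin1, at 1.00, fell just short of the fold limit. The Clu call was lost at -0.95 when only the compared groups were fitted, and at -0.91 to -0.99 without Cell (-)-TRAP replicate 2 or 4 or Tissue-TRAP replicate 3. Bin1 was called without Cell (-)-TRAP replicate 1 or 4 or Tissue-TRAP replicate 1 or 3 (1.01 to 1.06).

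**Figure D3:**
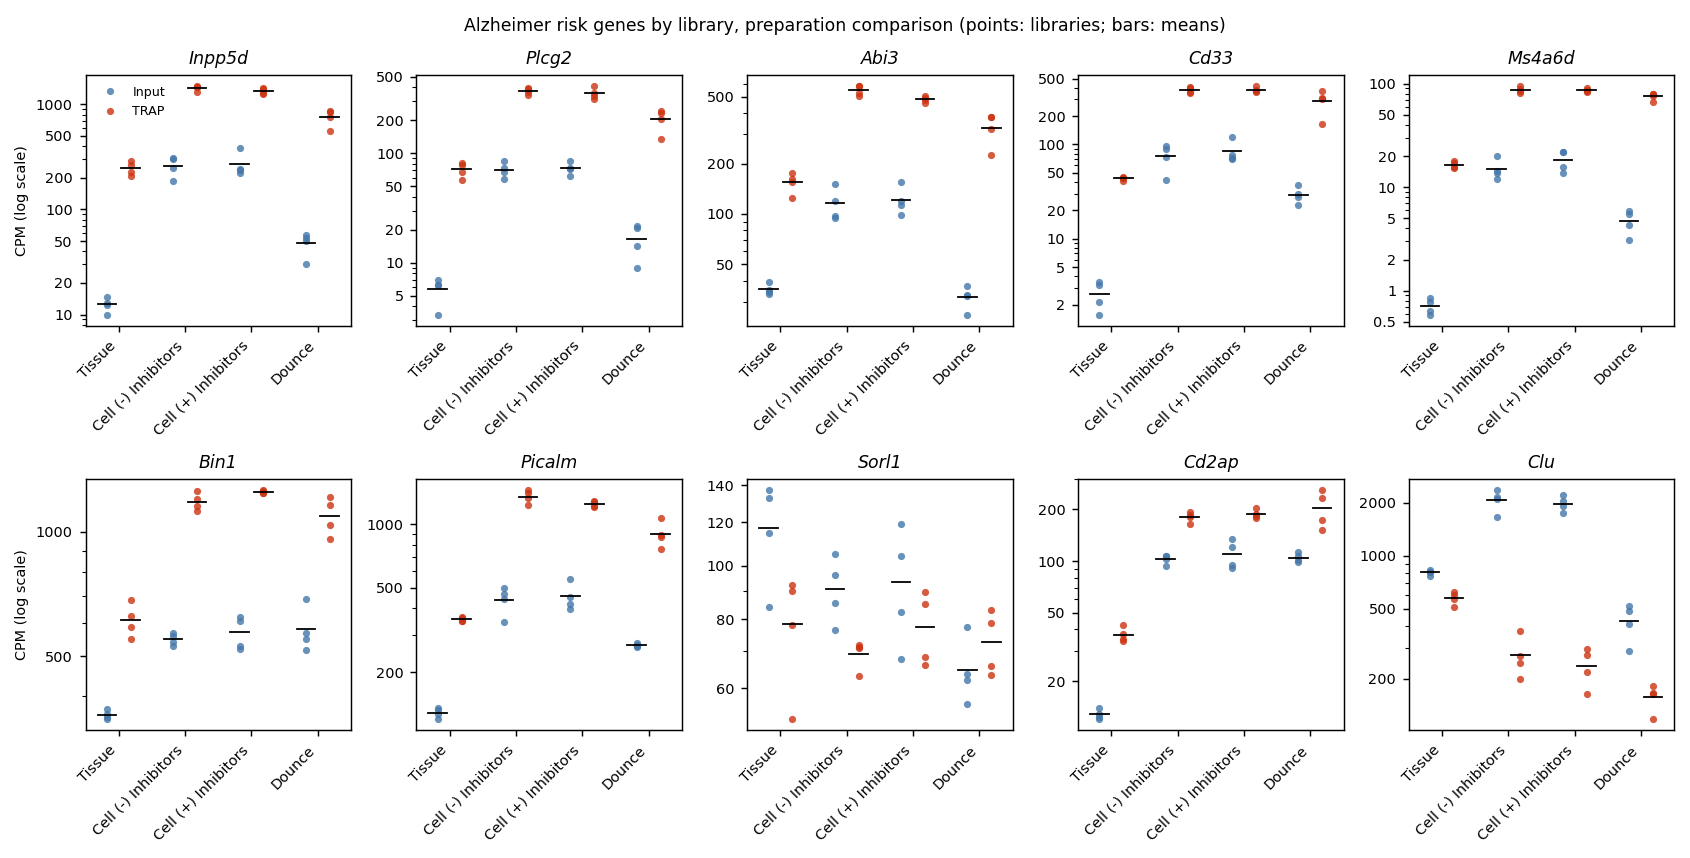
Level of each of the 10 genes in the cell preparation comparison, in CPM on a log axis, with 1 point per library (blue Input, red TRAP) and a bar at each group mean. Cell (-) and Cell (+) libraries lie over each other for all 10 genes in Input, and Dounce-TRAP means of Inpp5d, Plcg2 and Abi3 lie below those of Cell (-)-TRAP.

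Transcription and translation inhibitors left no call among the members. In Input, edgeR called 0 of 10 in Cell (+) against Cell (-), with 0 at an unadjusted p under 0.05 and log2 differences from -0.07 to 0.26, beside 0% of all genes called higher and 0.311% lower. In TRAP it again called 0 of 10, with 0 at an unadjusted p under 0.05 and differences from -0.19 to 0.17, beside 0.00679% higher and 0.632% lower. DESeq2 and limma also called 0 in both fractions. Inpp5d in TRAP had 1297, 1456, 1453 and 1495 CPM without and 1265, 1279, 1435 and 1403 CPM with inhibitors. In TRAP the libraries of the 2 groups overlapped for every member but Abi3, which had 505, 578, 580 and 527 CPM without and 479, 493, 504 and 458 CPM with inhibitors. In the same contrast 14 of 15 genes of a list of ex vivo activation, which includes Fos, Jun, Il1b and Tnf, were called lower in Input (median log2 fold change -3.67) and 15 of 15 in TRAP (median -4.80).

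Mechanical dissociation gave another pattern. Against Tissue-Input, Dounce-Input was higher for 6 members (background 28.7%) and lower for none (background 21.4%). Cd33 rose by 3.72, Cd2ap by 3.23, Ms4a6d by 2.93, Inpp5d by 2.16, Plcg2 by 1.75 and Picalm by 1.26 on the log2 scale, so that Cd2ap exceeded Inpp5d, which it did not do in the enzymatic suspension. Abi3 had 25.1 to 37.2 CPM in Dounce-Input (median 32.6) and 33.3 to 39.1 CPM in Tissue-Input (median 34.8). These overlapped, and the log2 difference was 0.06 ± 0.16 (adjusted p = 0.731). Phospho1, which shares the Abi3 locus on the other strand, was at 32.9 ± 2.05 CPM in Tissue-Input and 10.9 ± 2.22 CPM in Dounce-Input (SD, n = 4). Zfp652 was at 5.4 ± 0.51 and 8.27 ± 1.94 CPM, and Gngt2 at 1.88 ± 0.67 and 5.58 ± 2.56 CPM, in the same groups. Their part was not tested. Bin1 (0.89, adjusted p = 1.96e-07), Clu (-0.71, adjusted p = 0.000478) and Sorl1 (-0.64, adjusted p = 0.00247) passed the adjusted p below the fold limit.

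Against Tissue-TRAP, Dounce-TRAP was higher for 7 members (background 23.2%) and lower for Clu (background 27.1%) at -1.81, and Cell (+)-TRAP was higher for 8 (background 21.6%) and lower for Clu (background 31.2%) at -1.22. These contrasts and that of Cell (-) share the Tissue-TRAP libraries.

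Dounce-TRAP against Cell (-)-TRAP sets the cold mechanical beside the enzymatic preparation, and the 2 groups came from different mice. In it edgeR called 0 of the 10 members, beside 20.7% of all genes called higher and 7.99% lower. Without the fold limit 7 members passed the adjusted p, and 6 had an unadjusted p under 0.05. The share of all genes without the fold limit is not given, so these counts have no background. DESeq2 called 0, while limma called 1, Inpp5d, at -1.01. Inpp5d had 850, 865, 561 and 755 CPM in Dounce-TRAP against 1297, 1456, 1453 and 1495 CPM in Cell (-)-TRAP, which did not overlap, with a log2 difference of -0.90 ± 0.12 (adjusted p = 8.5e-06). Plcg2 had 204, 245, 134 and 235 CPM against 344, 392, 390 and 360 CPM, also without overlap, and a log2 difference of -0.85 (adjusted p = 0.000145). Abi3 (-0.74), Clu (-0.78), Picalm (-0.58) and Cd33 (-0.39) were lower by the adjusted p as well, Ms4a6d was at -0.20 (adjusted p = 0.0899), and Bin1 (-0.10), Sorl1 (0.08) and Cd2ap (0.18) did not pass it. The microglial marker sum was alike in both groups, with medians of 41460 CPM in Dounce-TRAP and 42740 CPM in Cell (-)-TRAP, and 0 of its 10 genes were called. Neuronal markers were called higher in Dounce-TRAP for 9 of 10 genes, from a median sum of 123.8 CPM to 1474 CPM, and endothelial markers were called lower for 10 of 10, and their part in the members' differences was not tested. The Dounce-TRAP libraries were also shallower (2471448 to 4724538 counts, against 12876223 to 14650287 in Cell (-)-TRAP), and the part of depth was not tested. The paper reports the lowest RNA integrity for Dounce-Input. It also reports coverage more skewed along transcripts in Dounce-TRAP and Tissue-TRAP alike than in Cell-TRAP with or without inhibitors. Per its methods, the Dounce suspension was cleaned with Percoll in place of a debris removal solution. The methods describe single hemispheres for that suspension, whereas the paper's results state that Dounce-Input RNA needed an entire brain. RNA integrity and coverage along transcripts were not analysed here, and the part of these differences was not tested.

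The pull-down in the preparation libraries gave 7 members higher in TRAP in Tissue (background 8.22%), 7 in Cell (-) (10.6%), 7 in Cell (+) (9.73%) and 6 in Dounce (20.8%), where Cd2ap was also called without replicate 4 (1.02). Clu was lower in Cell (-) at -2.92 (background 36.8%), in Cell (+) at -3.05 (35.8%) and in Dounce at -1.43 (26.7%), and no member was lower in Tissue (2.33%).

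To set the members beside the microglial content of each library, levels were expressed as a percentage of the summed CPM of the 10 microglial markers. Over both comparisons together Ms4a6d was the steadiest, between 0.17% and 0.27% in all group means. Within the sort comparison alone Inpp5d varied less in proportion, from 3.10% in Tissue-TRAP to 4.39% in Cell-TRAP. Inpp5d was at 3.73% in Tissue-Input, 3.10% in Tissue-TRAP, 4.39% in Cell-TRAP and 3.89% in Tyto-TRAP, and in the preparation libraries it was at 1.86% in Dounce-TRAP beside 3.31% in Cell (-)-TRAP. Plcg2 lay between 0.71% and 1.44% in the sort comparison, and Cd33 between 0.51% and 1.17%. In the preparation libraries, Plcg2 ran from 1.68% in Tissue-Input to 0.50% in Dounce-TRAP and Cd33 from 0.54% in Tissue-TRAP to 1.33% in Dounce-Input. The marker sum itself ran from a median of 276.7 CPM to 48450 CPM over these groups. The shares of the endocytic genes fell instead, and Sorl1 went from 31.7% in Tissue-Input to between 0.12% and 0.24% in the sorted groups, Bin1 from 90.8% to between 2.19% and 4.08% (the upper value in autoMACS-Input, whose libraries ran from 3.04% to 6.63%, the highest being replicate 3), and Picalm from 33.5% to between 2.64% and 3.44%. Cd2ap went from 3.89% to between 0.40% and 0.56%, Abi3 from 8.84% to between 1.15% and 1.45%, and Clu from 201% to as low as 0.0025%. In Tissue-TRAP, Cd2ap was already at 0.55% and Picalm at 4.44%.

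**Figure D4:**
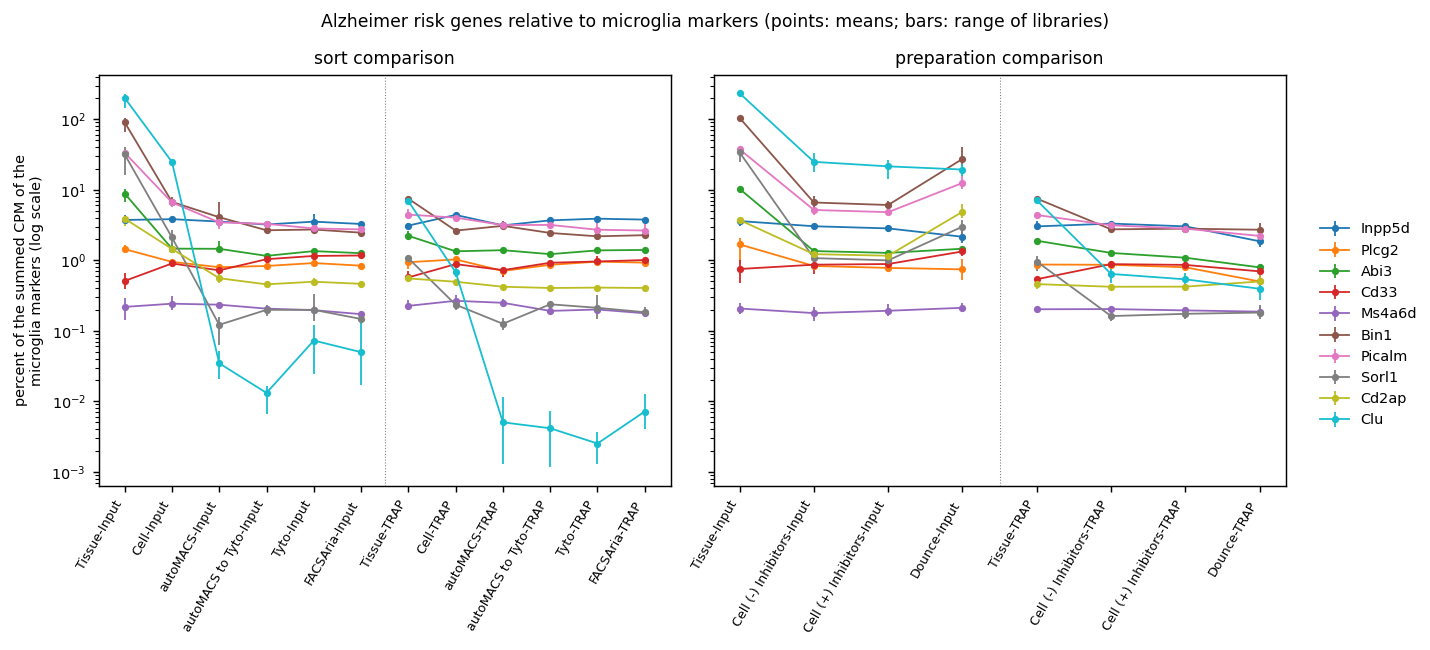
Level of each gene as a percentage of the summed CPM of 10 microglial markers, on a log axis, by group of the sort comparison and of the cell preparation comparison; points are group means and bars the range of libraries. Ms4a6d runs nearly flat, Inpp5d, Plcg2 and Cd33 vary less than the rest in the sort comparison, with Plcg2 going from 1.68% to 0.50% in the preparation comparison, while Sorl1, Bin1, Picalm and Clu fall from Tissue-Input to the sorted groups.

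The order of groups was described for each gene without a test. The ratio of the highest to the lowest group mean in the sort comparison was 1130 for Clu, 305 for Cd33, 166 for Ms4a6d and for Inpp5d, 105 for Plcg2, 25.4 for Abi3, 17.0 for Cd2ap, 15.6 for Picalm, 5.11 for Bin1 and 2.60 for Sorl1. Sorl1 ran from autoMACS to Tyto-TRAP (117 CPM) through Cell-Input (116), Tyto-TRAP (102), Tissue-Input (92.0), FACSAria-TRAP (87.9), Cell-TRAP (86.2), autoMACS to Tyto-Input (83.6), Tyto-Input (76.3), Tissue-TRAP (68.9), FACSAria-Input (61.5) and autoMACS-TRAP (56.7) down to autoMACS-Input (44.8), and every neighbouring pair in that order had overlapping libraries. The autoMACS-Input mean includes replicate 3, at 15.2 CPM beside 43.4 to 60.4 CPM in the other libraries of the group. Bin1 was highest in the autoMACS groups (1380 CPM in TRAP and 1340 in Input, where replicate 3 had 1626 CPM beside 1216 to 1266 CPM in the others), which lay apart from autoMACS to Tyto-TRAP (1197), and lowest in Cell-Input (372) and Tissue-Input (270), which lay apart from each other. From autoMACS to Tyto-Input (1124) down to FACSAria-Input (1033) and Cell-TRAP (972), each group overlapped with the next, whereas autoMACS to Tyto-TRAP above them and Tissue-TRAP (475) below them lay apart from both neighbours.

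To compare genes, levels were divided by exon length, taken as the union of all annotated exons of a gene. This length was 15732 bases for Picalm and 15864 for Cd2ap. Protein-coding transcripts of these genes held 8511 and 5399 distinct words of 50 bases, so the order of genes can depend on the length used. In the mean of the sorted TRAP groups, CPM per kilobase of exon was 286 for Bin1, 227 for Inpp5d, 154 for Abi3, 95.6 for Plcg2, 88.0 for Picalm, 55.7 for Ms4a6d, 55.5 for Cd33, 12.3 for Cd2ap, 8.01 for Sorl1 and 0.65 for Clu. In Tissue-Input the same measure was highest for Clu (174), then Bin1 (65.6), Sorl1 (8.13), Picalm (6.37) and Abi3 (6.35), and it was 1.49 for Inpp5d, 1.03 for Plcg2, 0.74 for Cd2ap, 0.39 for Ms4a6d and 0.21 for Cd33. Clu thus stood first in whole tissue and last in sorted TRAP, and Bin1 stood near the top in both.

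The genes whose pattern was most like each member were taken by the Pearson correlation of log2(CPM + 1) over the 12 group means of the sort comparison, points that share mice, suspensions and marker content. Inpp5d was closest to Lcp2 (r = 0.9993), Sipa1 and Rasal3, Plcg2 to Nfam1, Was and Inpp5d, Abi3 to Rps6ka1, Renbp and Arhgap25, Cd33 to P2ry13, Pik3cg and Akna, and Ms4a6d to Syngr2, Tmem106a and Sqrdl. Picalm was closest to Osbpl9, Dhrs3 and Irak4, Cd2ap to Rhbdf2, Fam46c and Txnip, Bin1 to Dguok, Osgep and Fam114a2, and genes close to Clu included Sparcl1 and Fam107a. Sorl1 had no close partner, with Med25 first at r = 0.845. Over the 8 group means of the cell preparation comparison, Plcg2 with Inpp5d and Cd33 with P2ry13 were the pairs that were again among the top 3.

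A list of 44 other genes at Alzheimer loci gave the surroundings, and 42 of them were in the tables. In Cell against Tissue, 23 were called higher and 6 lower in Input (background 28.6% and 17.5%). In TRAP, 19 were called higher and 6 lower (background 25.1% and 29.2%), with a median log2 fold change of 0.71. The members had 8 of 10 higher in each fraction, and the difference between the lists was not tested. The largest rises in TRAP were those of the lipid exporter Abca1 (4.00, from 37.5 to 594 CPM), the secreted protease Adamts1 (3.75) and the sheddase Adam17 (3.28), and the largest falls were those of Mapt, which encodes tau (-4.60, from 755 to 31.0 CPM), Tspoap1 (-4.30) and the cytokine Il34 (-3.39). With sorting, 18 rose and 10 fell in Input (background 17.2% and 34.6%), and 0 rose and 7 fell in TRAP (background 0.823% and 23.5%). Inhibitors left 1 of them called in TRAP, Adamts1, lower by a log2 fold change of -1.36 (background 0.632%). Against Cell (-)-TRAP, Dounce-TRAP had 5 higher and 3 lower (background 20.7% and 7.99%), with Adamts1 at -3.86 and Tspoap1, Mapt and Il34 at 3.56, 3.45 and 1.89. The counts of this list were not tested against their backgrounds.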

How the data were processed

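RNA-Seq was made by the authors from stranded poly(A) libraries of brain RNA. Per the paper's methods, reads were aligned directionally to mm10 in Strand NGS v4.0 after trimming, and duplicates were removed. The authors deposited 1 estimated count (expected count) per gene and library, quantified in Strand NGS from the aligned reads. Of these values 33.2% were whole in the sort table and 20.8% in the cell preparation table. The deposited tables also hold log2 values, which the authors normalised with DESeq2 and baselined to Tissue-Input. Whether counting used strand is not given in the sources used here. The tables list genes with more than 5 counts in every library of at least 1 group. An earlier table of 24 of the same libraries was not used, and 0 columns of values stayed unmapped to a sample. In each table, 23 symbols that had been turned into dates were restored from their identifiers.

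Groups were taken from the sample labels. Estimated counts were rounded and fitted with edgeR 4.0.16 in R 4.3.3 (quasi-likelihood, TMM, 1 mean per group, over all groups of a fraction, or over both fractions for TRAP against Input). Calls needed a fold above 2 and an adjusted p (Benjamini-Hochberg over all genes tested) under 0.1, and among sorts by an F test with the largest fold between any pair of methods above 2. Standard errors were derived from F, as the absolute log2 fold change over its square root. The fits were tested on simulated data. Alternatives were DESeq2 size factors, DESeq2 1.42.0, limma 3.58.1 on the deposited log2 values, other filters, no fold limit, the compared groups alone, the mouse as a block and leaving out libraries. Named genes are the 10 members, the 3 other Alzheimer genes with the largest rise and the 3 with the largest fall among those called in Cell-TRAP against Tissue-TRAP, the 3 genes most like each member (1 of which is not reported here), and marker lists. The members and lists were chosen with earlier results of these data known. Promoters came from RefSeq (GRCm38.p6), and exon lengths and shared words from GENCODE transcripts. Same-numbered libraries came from the same mouse, and the deviations of the pairs checked from their group means had mean correlations of 0.00698 to 0.276. Pairs across sort methods were not checked. Intervals and p-values from counts carry the spread between libraries within 1 study, some of which share a mouse, and depth per library is given in the report.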

Additional observations from a re-analysis of the deposited data

Results flagged for a closer look

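Within groups of 4 or 5 libraries, a library whose gap to its nearest neighbour took up most of the group's range (Dixon's criterion) was found in 10 of 180 sets of libraries, a set being 1 gene in 1 group, and chance flags about 1 in 20 groups. In the sort comparison these were Inpp5d in Tyto-Input replicate 4 (1591.2 CPM, nearest 1354.7), Plcg2 in Tyto-TRAP replicate 5 (410.99 CPM, nearest 466.13), Bin1 in autoMACS-Input replicate 3 (1625.6 CPM, nearest 1265.7), Picalm in Tyto-TRAP replicate 4 (1647.8 CPM, nearest 1240.6), Clu in FACSAria-Input replicate 4 (59.214 CPM, nearest 8.4634) and Clu in Tissue-Input replicate 4 (577.02 CPM, nearest 602.94). In the cell preparation comparison they were Inpp5d (383.49 CPM, nearest 243.7) and Cd33 (118.63 CPM, nearest 78.064) in Cell (+)-Input replicate 4, Cd33 in Tissue-TRAP replicate 1 (41.122 CPM, nearest 44.415) and Sorl1 in Cell (-)-TRAP replicate 2 (63.077 CPM, nearest 70.871).

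The difference between TRAP and Input itself differed between Cell and Tissue, by the interaction test in edgeR, for Inpp5d (-1.21), Cd33 (-1.79), Ms4a6d (-1.51) and Clu (-2.02) on the log2 scale, beside 29.5% of all genes called lower and 5.75% higher in the same test. The median of all genes in that test was -0.29, so a fall was common and not particular to the members.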

How the results depend on the processing

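No called difference changed direction under the alternatives run, which covered normalisation, filters, the call rule, the tool, the groups fitted, the mouse as a block and left-out libraries. Some differences near 0 that were not called changed sign, such as Inpp5d for the inhibitors in Input, at -0.16 to 0.15 when 1 library was left out, and Abi3 in Dounce-Input against Tissue-Input, at -0.03 to 0.16. With the adjusted p alone, without a fold limit, 3 members instead of 1 were called among sorts in Input, 6 instead of 1 among sorts in TRAP, 4 instead of 1 between sorted TRAP and Cell-TRAP, 7 instead of 1 between TRAP and Input in the sorts, 8 instead of 4 in the interaction and 7 instead of 0 between Dounce-TRAP and Cell (-)-TRAP. Shares of all genes under the adjusted p alone are not given, so these counts cannot be read against a background. Requiring at least 10 counts in every library left 0 between sorted TRAP and Cell-TRAP and 0 between TRAP and Input in the sorts, since Clu was then not tested, and 5 between TRAP and Input in Cell. With limma 3 were called among sorts in Input and 1 between Dounce-TRAP and Cell (-)-TRAP, and fitting the 4 sorts alone left 0 among sorts in Input. The mouse as a replicate block was fitted for 120 of the 230 member results, and there it changed 1 call, that of Bin1 in Cell-TRAP against Tissue-TRAP (0.98). It was not fitted among the sorts, for the sorts against Cell or Tissue, or for Dounce or the Cell groups of the preparation comparison against Tissue. How those calls stand with a block was not tested.

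Leaving out 1 library at a time gave 8 to 8 members for Cell-Input against Tissue-Input and 8 to 8 for the same contrast in TRAP, 9 to 10 for sorted against Cell-Input, 1 to 1 for sorted TRAP against Cell-TRAP, 9 to 9 for sorted TRAP against Tissue-TRAP, 0 to 3 among sorts in Input and 0 to 2 in TRAP. For TRAP against Input and the interaction, the Input and TRAP libraries of 1 mouse and preparation were left out together. That gave 7 to 7 in Tissue of both comparisons, 9 to 9 in Cell, 1 to 1 in the sorts, 4 to 5 for the interaction, 8 to 8 in Cell (-) and in Cell (+), and 7 to 8 in Dounce. In the preparation libraries, leaving out 1 library within a fraction gave 8 to 8 for Cell (-)-Input and 6 to 6 for Dounce-Input against Tissue-Input, 7 to 9 for Cell (-)-TRAP, 9 to 9 for Cell (+)-TRAP and 8 to 8 for Dounce-TRAP against Tissue-TRAP, 0 to 0 for the inhibitors in Input and in TRAP, and 0 to 0 for Dounce-TRAP against Cell (-)-TRAP.

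DESeq2's size factors moved the median of all genes by -0.33 in Cell-TRAP against Tissue-TRAP, -0.20 in sorted against Cell-Input, -0.35 in sorted TRAP against Tissue-TRAP, and, for TRAP against Input, by -0.41 in Cell, 0.13 in Cell (-), 0.12 in Cell (+) and -0.23 in Dounce. Bin1 lost 3 calls with it and Cd2ap lost 2, while Clu in Cell-TRAP against Tissue-TRAP (-1.13) and the Plcg2 interaction (-1.25) gained one. Depth limits Cd33 and Ms4a6d in Tissue-Input and Clu in sorted TRAP, which rest on 6 to 92 estimated counts per library.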
